A study of Mus musculus with 6 samples.

Results

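The genes described here were 10 transcription factors known from hair follicle stem cells, namely Lhx2, Sox9, Tcf7l1, Tcf7l2, Nfatc1, Foxc1, Tbx1, Nfib, Nfix and Runx1. They were taken by symbol from the 32285 gene rows of the deposited UMI count matrices, and each symbol matched 1 row. The data were single-cell RNA-seq of dorsal skin cells from wildtype FVB male mice whose telogen back skin had been shaved and waxed, which starts hair regeneration. There were 6 libraries, 1 from skin that had not been depilated (0 h) and 5 from skin taken 4 h or 16 h, and then 2 d, 4 d or 6 d, after depilation, and each library pooled the cells of 2 mice in equal numbers. Lists of 6 values below follow this order of time. All 6 groups shared the strain, the sex and an age of postnatal day 55 to 57, none carried a transgene or a gene deletion, and 0 h was the only state without depilation. With 1 library per time point, the time point and the library cannot be told apart, and no test between any pair of time points was made.

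Hair follicle stem cells rest in the bulge, the part of the outer root sheath below the sebaceous gland, and are called into growth in repeated cycles. The 10 factors are known from work on these cells. Lhx2, a LIM homeodomain factor, and Sox9, an HMG box factor, are associated with the maintenance of bulge identity, and Tcf7l1 and Tcf7l2 are DNA-binding partners of beta-catenin that act mainly as repressors when the Wnt signal is low. Nfatc1, a calcineurin-dependent factor, Foxc1, a forkhead factor, and Tbx1, a T-box factor, are associated with stem cell quiescence or its return, Nfib and Nfix are related nuclear factor I proteins with roles at stem cell enhancers, and Runx1 is a RUNX factor associated with entry into growth.

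Positions are given on GRCm38 (mm10), as the limits of the gene in GENCODE vM21. Lhx2 was on chromosome 2 (38339281 to 38369733, + strand), Sox9 on chromosome 11 (112782224 to 112787760, +), Tcf7l1 on chromosome 6 (72626378 to 72789254, −) and Tcf7l2 on chromosome 19 (55741820 to 55933654, +). Foxc1 was on chromosome 13 (31806633 to 31812476, +), Nfib on chromosome 4 (82290173 to 82705750, −) and Nfix on chromosome 8 (84699876 to 84800344, −). Tbx1 (18580979 to 18590671, −) and Runx1 (92601466 to 92826149, −) were both on chromosome 16.

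RefSeq promoters of GRCm38.p6 were found for 7 of the 10 genes, 14 promoters in all, and Sox9, Nfatc1 and Nfib had no entry. Of these, 3 are shown as the 250 bases before the start of transcription, written 5′ to 3′ on the strand of the gene. Lhx2 and Tbx1 are shown because their levels were the most alike of any pair of the 10 genes, and Tcf7l2 because it was lower at 4 h in every epithelial cell type compared. Each of these 3 genes has 2 entries, and the one farther upstream is shown. Lhx2 lies at chr2:38339031-38339280 (+), Tbx1 at chr16:18590672-18590921 (−) and Tcf7l2 at chr19:55741560-55741809 (+). Capitals mark matches, on either strand, to the motifs of the same factor families.
Lhx2: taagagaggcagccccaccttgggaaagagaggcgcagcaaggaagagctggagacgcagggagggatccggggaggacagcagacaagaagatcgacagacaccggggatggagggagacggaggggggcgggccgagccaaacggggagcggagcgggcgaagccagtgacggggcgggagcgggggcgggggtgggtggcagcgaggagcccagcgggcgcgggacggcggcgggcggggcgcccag
Tbx1: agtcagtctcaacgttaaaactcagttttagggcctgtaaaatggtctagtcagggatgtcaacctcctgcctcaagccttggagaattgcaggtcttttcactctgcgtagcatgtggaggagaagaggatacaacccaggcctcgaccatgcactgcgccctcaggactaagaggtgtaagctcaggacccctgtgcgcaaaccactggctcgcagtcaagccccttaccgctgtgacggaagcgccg
Tcf7l2: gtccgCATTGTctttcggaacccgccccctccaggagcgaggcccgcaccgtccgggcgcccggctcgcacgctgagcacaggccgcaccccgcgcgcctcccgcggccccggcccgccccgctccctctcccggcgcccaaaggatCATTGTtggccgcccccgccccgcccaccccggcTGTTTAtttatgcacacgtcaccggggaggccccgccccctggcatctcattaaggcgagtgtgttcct

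The motifs searched on both strands were TAATTA for LHX, CTTTGA for TCF, ACAATG and ACAAAG for SOX, GGAAAA for NFAT, TGTGGT for RUNX, TTGGCA for NFI, GGTGTGA for T-box and TGTTTA for forkhead factors. Any of them occurs often by its letters alone. Over the 32619 RefSeq promoters of this length, the share with a match ran from 3.36% for the T-box motif and 4.8% for TAATTA to 20.48% for GGAAAA, with 10.36% for ACAATG and 12.01% for TGTTTA. The Tcf7l2 window held 3 matches. These were ACAATG on the − strand 245 and 103 bases before the start and TGTTTA on the + strand 69 bases before it. The Lhx2 and Tbx1 windows held 0 matches, which says only that these letters do not occur there. Of the second entries of these genes, not shown, that of Lhx2 (chr2:38351058-38351307, +) held GGAAAA once, on the − strand 139 bases before its start, and that of Tbx1 (chr16:18588900-18589149, −) held 0 matches. That of Tcf7l2 (chr19:55895071-55895320, +) held TTGGCA and ACAAAG on the − strand, 41 and 14 bases before its start. The GC content of the windows was 72.8% for Lhx2, 54.4% for Tbx1 and 72.8% for Tcf7l2, beside a median of 52.4% over all promoters.

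The 6 libraries held 61031 barcodes, with 72634390 to 112370376 UMIs per library and a median of 5857.5 to 10351 UMIs per barcode. Of these, 55177 barcodes passed the limits on genes and mitochondrial reads, 4675 were removed as doublets and 50502 cells were analysed. Of 60599 distinct barcode sequences, 430 occurred in more than 1 library. Cell types were rebuilt here by clustering without the 10 factors and their related genes, and were named only from marker lists. OB1-like cells, named from a list of 11 outer bulge markers with Cd34, Postn and Krt24 among them, numbered 5000. There were 318, 254, 373, 321, 2498 and 1236 of them in the 6 libraries in order of time, with a median of 5223.5 to 7011 UMIs per cell. They came from 2 clusters. The Krt24 cluster (2707 cells), led by Krt24 and Cd34, was higher for 8 of the 11 OB1 markers. The Col14a1 cluster (2293 cells), led by Hsd11b2 and Col14a1, was higher for 5 of 11. The mean log2 fold change of the 11 markers was 2.38 in the Krt24 cluster and 0.727 in the Col14a1 cluster. The Col14a1 cluster supplied 1690 of the 2498 OB1-like cells at 4 d, so values for OB1-like cells combine both clusters in shares that differ between libraries. Each tested comparison of the 10 factors with another cell type is also given for the Krt24 cluster alone. Whether the Col14a1 cluster holds cells of the growing outer root sheath was not tested. The summed level of the 11 OB1 markers in OB1-like cells ran from 11607 CPM (counts per 1000000 UMIs) at 0 h to 3115 CPM at 2 d. The 5 T cell markers summed to 1.41 to 7.83 CPM there, the 5 melanocyte markers to 1.45 to 14.5 CPM and the 5 fibroblast markers to 10.1 to 40.4 CPM. The 5 Langerhans cell markers summed to 56.1 to 139 CPM, the 5 sebaceous gland markers to 102 to 249 CPM and the 6 markers of suprabasal epidermis (IFE.SB) to 508 to 1576 CPM.

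OB2-like and OB3-like cells, the other groups of the outer bulge, had 90 to 214 and 61 to 227 cells per library, respectively. HF cluster 0 was higher for all 5 markers of upper follicle basal cells and IFE cluster 0 for all 5 markers of basal interfollicular epidermis. Neither had a marker of its own list among its 10 leading genes, so both are called by number. Levels below are CPM computed from the UMIs summed over the cells of a type in a library.

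Lhx2 separated the outer bulge from the upper follicle and the epidermis in every library. In OB1-like cells it stood at 425, 168, 329.9, 528, 494 and 429.9 CPM in order of time, lowest at 4 h and highest at 2 d. In HF cluster 0 the same libraries held 1.69 to 19.0 CPM and in IFE cluster 0 they held 0.192 to 4.94 CPM, so even the lowest bulge library was above the highest library of either. OB2-like cells (316 ± 134 CPM, SD, n = 6 libraries) and OB3-like cells (313 ± 166, n = 6) followed OB1-like cells (396 ± 131, n = 6), and these 3 types did not differ beyond their spread. IRS3-like cells, an inner root sheath group, had 174 ± 39.8 CPM (n = 3), and uHF.SB-like cells had 16.9 ± 6.65 (n = 6).

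Tbx1 showed the same order at the top. It had 203 ± 73.5 CPM (SD, n = 6) in OB1-like, 157 ± 45.3 in OB2-like and 100 ± 69.1 in OB3-like cells, with overlapping ranges. In HF cluster 0 it ranged from 2.54 to 17.9 CPM and in IFE cluster 0 from 0.032 to 2.98 CPM. Tcf7l1 followed the same pattern, with 22.9 ± 9.45 CPM in OB1-like, 18 ± 9.56 in OB3-like and 9.31 ± 2.22 in OB2-like cells (n = 6 each), and at most 3.28 CPM in HF cluster 0. Its highest mean was in DP and fibroblast-like cells (61.1 ± 24.8 CPM, n = 2), and Tcf7l1 was therefore the gene of the 10 whose highest mean lay outside the epithelium.

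Sox9, Foxc1 and Nfatc1 had their highest levels in other parts of the follicle. Sox9 was highest in OB2-like cells (1059 ± 372 CPM, SD, n = 6), followed by IB-like cells, the inner bulge (990 ± 455, n = 4), IRS3-like cells (873 ± 51.2, n = 3), an unnamed cluster led by Cpa4 (851 ± 245, n = 3) and OB3-like cells (750 ± 116, n = 6), while OB1-like cells had 479 ± 128 (n = 6), with 681 ± 194 in the Krt24 and 269 ± 87.6 in the Col14a1 cluster. Foxc1 was highest in IB-like (220 ± 95.6, n = 4), uHF.SB-like (196 ± 43.4, n = 6) and OB2-like cells (162 ± 37.8, n = 6), which overlapped, and had 48.7 ± 22.2 in OB1-like cells. Nfatc1, on the − strand of chromosome 18 (80606205 to 80713071), was highest in OB3-like cells. It stood there at 204, 301, 276, 302, 482 and 302 CPM from 0 h to 6 d, and in OB1-like cells it did not exceed 100.2 CPM in any library.

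Nfib, Nfix, Tcf7l2 and Runx1 were less restricted. Nfib had 1022 ± 362 CPM in OB1-like and 1136 ± 455 in OB3-like cells (SD, n = 6 each), but also 750 ± 223 in SG-like cells, the sebaceous gland (n = 5), and 242 ± 85.4 in IFE cluster 0. Nfix was nearly level over basal cells, with 486 ± 145 CPM in OB1-like cells, 491 ± 148 in HF cluster 0 and 419 ± 106 in IFE cluster 0. Tcf7l2 had 94.7 ± 39.8 CPM in OB1-like and 27.9 ± 8.79 in IFE cluster 0. Runx1 had 155 ± 40.2 CPM in OB1-like cells and 134 ± 38.5 in Langerhans-like cells, antigen-presenting cells in which RUNX factors are known, but 13.2 ± 9.91 in IFE cluster 0. Its highest mean was in the Cpa4 cluster (257 ± 110, n = 3).

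**Figure D1:**
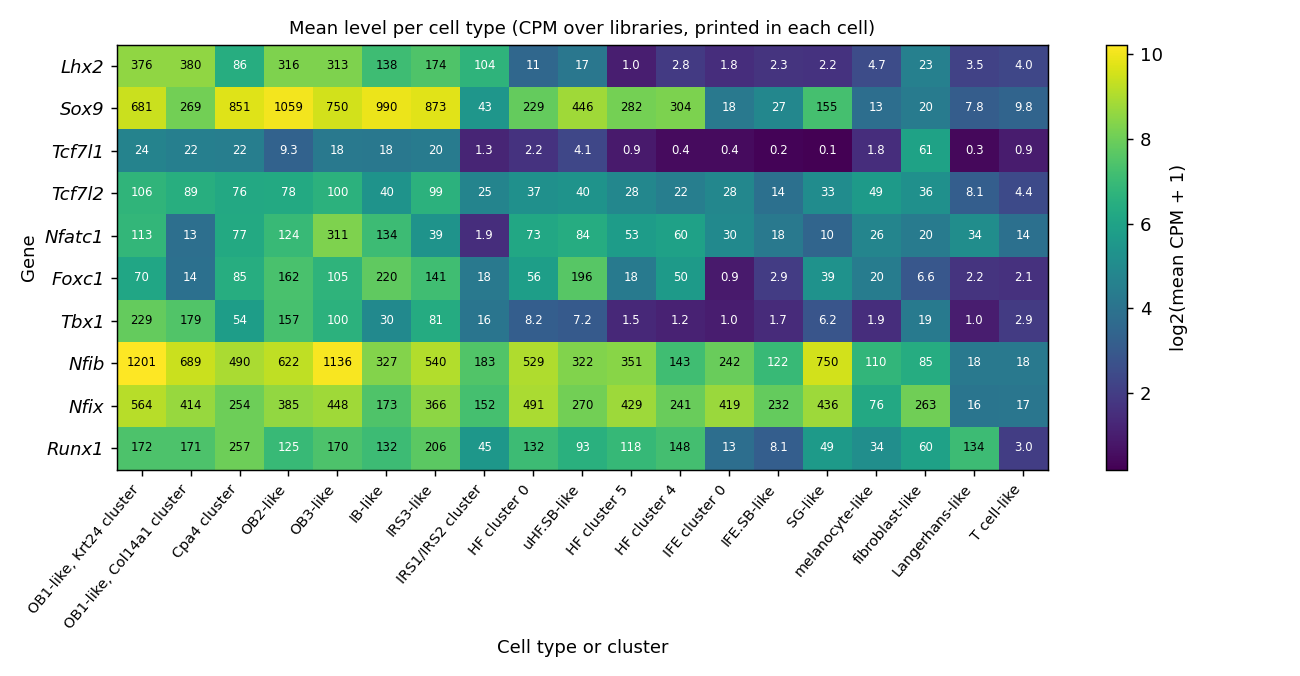
Heat map of the mean level of each of the 10 factors (rows) in each cell type or cluster (columns), coloured by log2(mean CPM + 1) with the mean CPM over libraries printed in each cell, and with OB1-like cells shown as their Krt24 and Col14a1 clusters. Lhx2 has a mean of 376 and 380 CPM in those clusters and 1.8 CPM in IFE cluster 0, whereas Nfix is at a similar level in both (564 and 414 CPM, and 419 CPM in IFE cluster 0).

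Free RNA in droplets gives a low count of any gene in every cell, and T cell-like cells show its size for factors that they should lack. Nfatc1 and Runx1 are known to be used by lymphocytes, so T cells give no background for these 2. After each cell had been thinned to 2000 UMIs, Lhx2 was detected in 57.1%, 22.8%, 48.6%, 63.1%, 60.9% and 51.9% of OB1-like cells over the time series. In T cell-like cells (median 2008 to 2692 UMIs per cell before thinning) the share was 0% to 3.12%. Without thinning the share in OB1-like cells at 0 h was 84.3%. At the same depth Nfib was found in 55.3% to 90.9% of OB1-like cells and Nfix in 45.1% to 72.5%, and both were found in at most 4.16% of T cell-like cells. Nfatc1 was found in 5.65% to 16.1% of OB1-like cells. Tcf7l1 was found in 1.88% to 6.95% of OB1-like cells and in at most 1.13% of T cell-like cells, and its levels rest on 28 to 570 UMIs per library.

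The number of the 10 factors with a UMI in the same cell was counted at this fixed depth. OB1-like cells had means of 3.85, 2.56, 3.33, 3.58, 3.45 and 4.17 factors in order of time, and 50.8% to 87.8% of the cells had 3 or more. OB2-like cells had similar means of 2.28 to 4.06, OB3-like cells 2.69 to 4.37 and IRS3-like cells 3.08 to 3.32. HF cluster 0 had means of 1.42 to 2.29, IFE cluster 0 had 0.582 to 1.22 and T cell-like cells had 0.0578 to 0.177. The lowest mean of the OB1-like, OB2-like and OB3-like cells and of the HF and IFE clusters 0 was that of the 4 h library in each.

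To ask which factors set OB1-like cells apart from the upper follicle, their summed counts and those of HF cluster 0 were compared within the 6 libraries. The test was edgeR's quasi-likelihood test, with Benjamini-Hochberg adjustment over all genes tested. Of the 10 factors, 6 were higher in OB1-like cells and 0 were lower, beside 12.1% of the 10670 genes tested that were higher and 8.86% that were lower. The median log2 fold change was 0.93 over the 10 factors and -0.0011 over all genes. The homeodomain and T-box factors led. Lhx2 was higher by 5.18 on the log2 scale (SE 0.30, adjusted p = 1.13e-05, edgeR), Tbx1 by 4.68 (SE 0.29, adjusted p = 1.39e-05) and the Wnt pathway repressor Tcf7l1 by 3.21 (SE 0.25, adjusted p = 3.21e-05), each in 6 of 6 libraries. Tcf7l2 was higher by 1.26 (SE 0.10), Sox9 by 0.97 (SE 0.13) and Nfib by 0.89 (SE 0.16), again in 6 of 6 libraries. The ranges of Lhx2, Tbx1, Tcf7l1 and Sox9 lay wholly above those of HF cluster 0, as did the ranges of 5.73% of 10814 genes. SEs were taken as the fold change divided by the square root of F. Nfatc1 (-0.14), Foxc1 (-0.43), Nfix (-0.09) and Runx1 (0.16) did not pass, and each was higher in OB1-like cells in 2 or 3 of 6 libraries only. With the Krt24 cluster in place of all OB1-like cells, Nfatc1 also passed (0.55, SE 0.18, adjusted p = 0.0302, edgeR) and 7 factors were higher and 0 lower, beside 19.1% and 20.3% of the genes tested.

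Against IFE cluster 0, 8 of the 10 factors were higher in OB1-like cells and 0 were lower, beside 15.7% higher and 18.1% lower among the 12056 genes tested. Tbx1 was higher by 7.93 on the log2 scale (SE 0.57), Lhx2 by 7.89 (SE 0.46), Tcf7l1 by 5.55 (SE 0.28), Foxc1 by 5.48 (SE 0.58), Sox9 by 4.62 (SE 0.33) and Runx1 by 3.56 (SE 0.34). Nfib (1.84, SE 0.17) and Tcf7l2 (1.45, SE 0.13) differed less, and all 8 were higher in 6 of 6 libraries with no overlap of the ranges, beside 10.7% of 10814 genes with ranges wholly above. In IFE cluster 0, Tbx1, Lhx2, Tcf7l1 and Foxc1 reached at most 2.98, 4.94, 0.845 and 1.40 CPM. T cell-like cells reached 6.98, 10.8, 3.23 and 3.94 CPM of these genes. The low side of these 4 fold changes was thus no higher in CPM than T cell-like cells. Those held a median of 2008 to 2692 UMIs per cell, beside 6075.5 to 10990 in IFE cluster 0. The same number of free UMIs gives a higher CPM in shallower cells, so this does not place IFE cluster 0 at background. The sizes and order of the 4 fold changes are uncertain. Nfatc1 was 1.008 higher (SE 0.40, adjusted p = 0.0843, edgeR) and missed the threshold, whereas in the Krt24 cluster alone it was 1.76 higher (SE 0.23, adjusted p = 0.000411) and 9 factors were higher and 0 lower, beside 18.9% and 19.5% of genes. Nfix was -0.07 (SE 0.13), with 273 to 691 CPM in OB1-like cells and 208 to 486 CPM in IFE cluster 0. Foxc1 and Runx1 thus passed against the epidermis and not against the upper follicle, where Foxc1 was at 43.6 to 68.4 CPM and Runx1 at 85.3 to 202 CPM. The upper follicle and the epidermis were not tested against each other.

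Within the lower follicle the factors split in both directions. Against OB2-like cells, 2 of 10 were higher in OB1-like cells and 3 lower, beside 9.5% and 10.7% of 8208 genes. Tcf7l1 was higher by 1.19 (SE 0.31, adjusted p = 0.0182, edgeR) and Nfib by 0.62 (SE 0.13, adjusted p = 0.0055). The quiescence-associated Foxc1 (-1.95, SE 0.32, adjusted p = 0.0029) and Nfatc1 (-0.93, SE 0.24, adjusted p = 0.0204) and the bulge factor Sox9 (-1.20, SE 0.14, adjusted p = 0.000128) were lower, each in 6 of 6 libraries. Foxc1 ranged from 20.5 to 83.5 CPM in OB1-like and from 124 to 215 CPM in OB2-like cells, without overlap, as for 1.17% of 10814 genes with OB1-like cells below, and Tcf7l1 lay wholly above, as did 2.56%. The ranges of Sox9 and Nfatc1 overlapped. Without the 6 d library the adjusted p of Tcf7l1 was 0.107 and that of Nfatc1 0.0523, and without 16 h that of Nfatc1 was 0.0576.

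The comparison with OB2-like cells also depended on the Col14a1 cluster. In the Krt24 cluster alone 5 factors were higher, namely Tcf7l1, Nfib, Nfix, Tbx1 and Runx1, and 2 were lower, Foxc1 (-1.32, SE 0.15) and Sox9 (-0.70, SE 0.10), beside 9.11% and 9.33% of genes. Nfatc1 was then -0.24 (SE 0.16, adjusted p = 0.356, edgeR), with 107, 127, 87.4, 155, 80.5 and 120.2 CPM in the Krt24 cluster beside 112, 163, 134, 90.1, 128 and 113 CPM in OB2-like cells, and it was lower in 4 of 6 libraries. The 6 markers of suprabasal epidermis summed to 4402 to 5340 CPM in OB2-like and 1127 to 3449 CPM in OB3-like cells, and the 11 OB1 markers to 1333 to 3306 and 2737 to 5764 CPM. Whether suprabasal cells contributed to these differences was not tested.

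Against OB3-like cells, Tbx1 was the 1 factor higher in OB1-like cells (1.14, SE 0.19, adjusted p = 0.00118, edgeR) and 3 were lower, beside 5.24% and 6.07% of 8531 genes. Nfatc1 was lower by the most (-2.14, SE 0.40, adjusted p = 0.0152), followed by Foxc1 (-1.25, SE 0.22, adjusted p = 0.00264) and Sox9 (-0.66, SE 0.12, adjusted p = 0.00165). Nfatc1 was lower in 6 of 6 libraries, with no overlap between 25.4 to 100.2 CPM in OB1-like and 204 to 482 CPM in OB3-like cells, beside 1.23% of 10814 genes with OB1-like cells wholly below. Its adjusted p was 0.0515 without the 2 d library and 0.0501 without the 6 d library. In the Krt24 cluster alone 2 factors were higher, Tbx1 and Nfix, and 2 lower, Nfatc1 (-1.45, SE 0.23, adjusted p = 0.00535) and Foxc1 (-0.58, SE 0.12, adjusted p = 0.00204), beside 6.19% and 5.71% of genes. Sox9 was then -0.13 (SE 0.10, adjusted p = 0.47), with 517, 548, 461, 859, 791 and 907 CPM beside 802, 675, 575, 744, 788 and 914 CPM in OB3-like cells, and it was lower in 4 of 6 libraries. Lhx2 was 0.46 higher than in OB3-like cells (SE 0.17, adjusted p = 0.102) and 0.35 higher than in OB2-like cells (SE 0.19, adjusted p = 0.215), and neither difference passed.

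**Figure D2:**
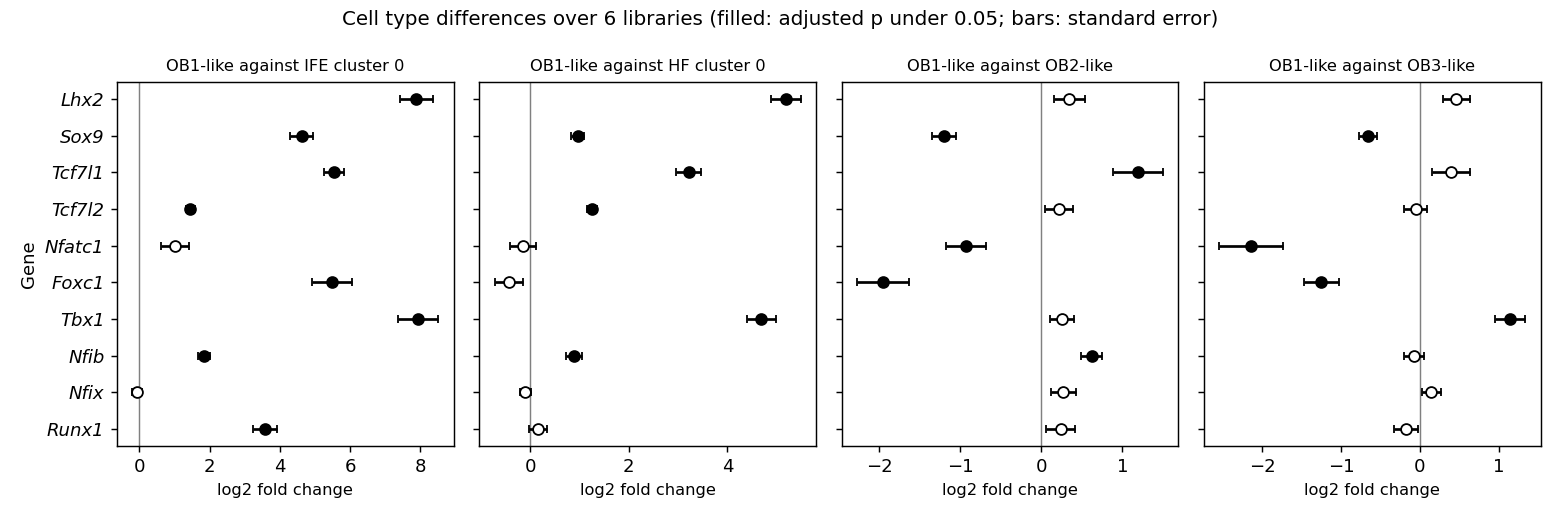
Log2 fold change with its SE for each factor between OB1-like cells and, in turn, IFE cluster 0, HF cluster 0, OB2-like cells and OB3-like cells, over 6 libraries, with filled points for adjusted p under 0.05. Lhx2 and Tbx1 lie far to the right against the upper follicle and the epidermis, and Nfatc1, Foxc1 and Sox9 lie left of 0 against OB2-like and OB3-like cells. The points are for all OB1-like cells, and in the Krt24 cluster alone Nfatc1 did not pass against OB2-like cells, nor Sox9 against OB3-like cells.

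Each factor was then followed over the 6 libraries in OB1-like cells. A curve in time (a natural spline with 3 degrees of freedom in hours) was fitted to the summed counts by edgeR's quasi-likelihood test. It called 0 of 10 factors, beside 2% of the 10814 genes tested (216 genes). At an unadjusted p under 0.05 there was 1 factor, Foxc1 (adjusted p = 0.264, edgeR), beside 12.8% of all genes, and DESeq2's likelihood ratio test also called 0 of 10. A curve over 6 single libraries leaves few degrees of freedom, so values that were not called are given as they stood. These series leave out the unnamed Cpa4 cluster, described below, whose cells came mainly from the 4 h and 16 h libraries. At resolution 0.8 a cluster led by Cpa4 was named from the OB1 list. In the Cpa4 cluster at 4 h, Sox9 was at 1003 CPM and Lhx2 at 24.2 CPM. Joining it to OB1-like cells would therefore raise Sox9 and lower Lhx2 at 4 h. With it joined, the curve again called 0 of 10 factors.

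Sox9 stood at 503, 477, 398, 439, 344 and 712 CPM in order of time. Its lowest library was 4 d and its highest 6 d. Tcf7l2 stood at 101, 42.1, 66.1, 96.5, 102 and 159.7 CPM, lowest at 4 h and highest at 6 d. Tcf7l1 was at 19.6, 20.3, 14.8, 14.5, 29.4 and 38.7 CPM, with its highest values at 4 d and 6 d. Tbx1 behaved alike at the late times, at 182, 142, 141, 174, 246 and 330.3 CPM.

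Nfatc1, Foxc1 and Runx1 had their lowest values at 4 d, whereas Tbx1, also associated with quiescence, was lowest at 16 h. Nfatc1 stood at 93.8, 100.2, 69.2, 72.7, 25.4 and 82.5 CPM and Foxc1 at 83.5, 53.0, 46.4, 30.2, 20.5 and 58.7 CPM in the same order. Runx1, at 190.4, 168, 159.9, 178, 76.8 and 156 CPM, was also lowest at 4 d. These 3 of the 10 factors were at least 2-fold lower at 4 d than at 0 h, beside 13.9% of all genes tested. At 4 d, 2498 of the 5000 OB1-like cells were collected, most of them in the Col14a1 cluster described below.

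Nfib and Nfix moved alike. Nfib stood at 1506, 469, 889.7, 939, 1005 and 1324 CPM and Nfix at 589.7, 273, 467, 404, 494 and 691 CPM. Both were lowest at 4 h, and only Nfix exceeded its 0 h level, at 6 d.

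**Figure D3:**
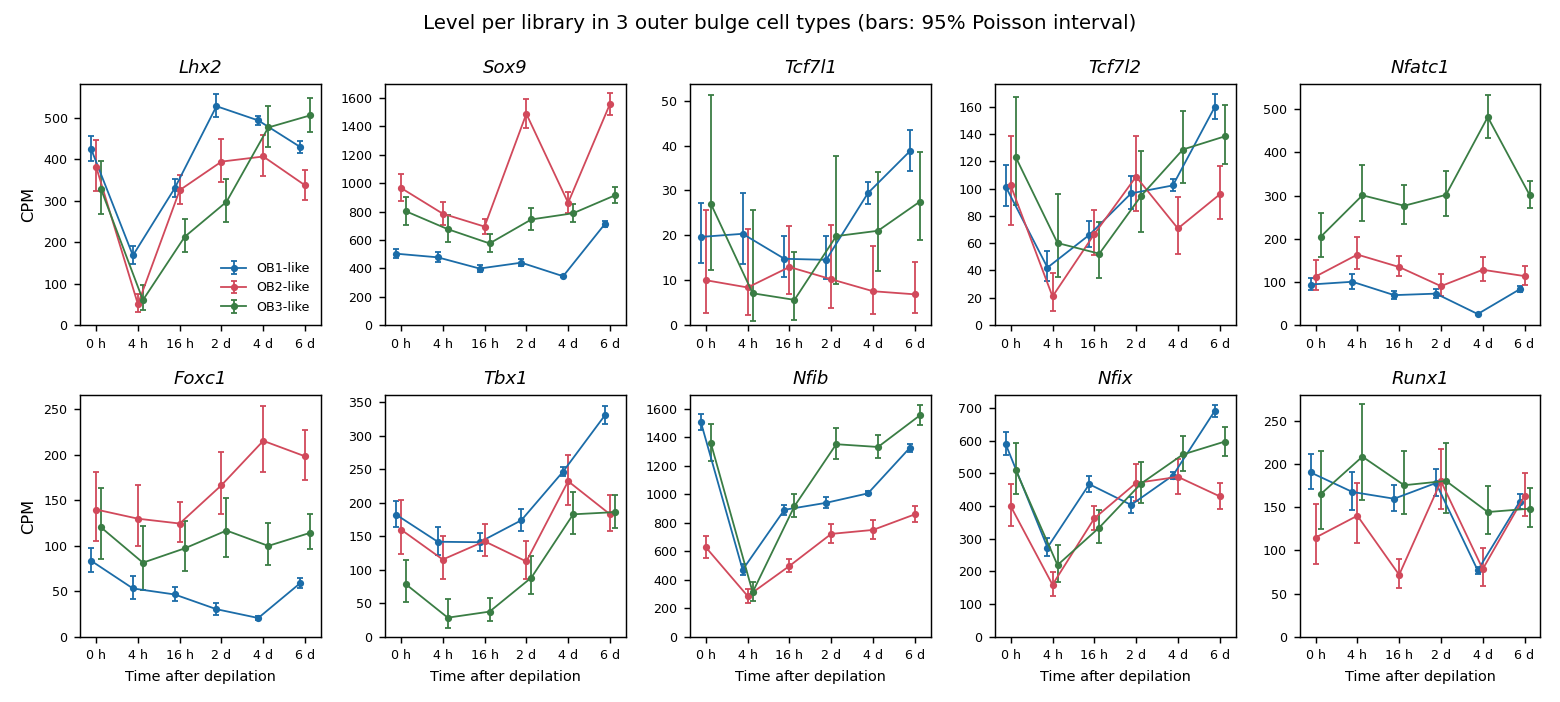
Level of each factor (CPM) in OB1-like, OB2-like and OB3-like cells in the 6 libraries in order of time, with 95% Poisson intervals that cover counting error only. Lhx2, Tcf7l2, Nfib and Nfix dip at 4 h in OB1-like cells, and Nfatc1, Foxc1 and Runx1 are lowest there at 4 d.

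The fit depended on single libraries. Without the 0 h library, 4 of 10 factors were called in OB1-like cells, namely Nfatc1 (adjusted p = 0.00202, edgeR), Foxc1 (adjusted p = 0.0072), Tcf7l2 (adjusted p = 0.00829) and Lhx2 (adjusted p = 0.0211), while the genes called in all rose from 216 to 2070. Without the 4 h library only Foxc1 was called (adjusted p = 0.0345), with 883 genes in all. Without 4 d or without 6 d 0 factors were called, with 20 and 65 genes in all. In the other epithelial types with at least 20 cells in every library the curve called 0 factors of 9 tested in OB2-like, 10 in OB3-like, 10 in HF cluster 0, 10 in uHF.SB-like, 8 in HF cluster 4, 7 in HF cluster 5, 10 in IFE cluster 0 and 9 in IFE.SB-like cells. It called 0.0459% of all genes in OB3-like cells and 0% in each of the other 7 types. At an unadjusted p under 0.05 it found 0 to 2 of the factors per type, beside 0.572% to 6.11% of all genes (2.79% in OB2-like and 4.28% in OB3-like cells), and DESeq2's test called Tbx1 in IFE.SB-like cells and no factor in the other 7. Tbx1 reached at most 5.68 CPM in IFE.SB-like cells, at 4 d, beside 6.98 CPM in T cell-like cells of that library. The median UMIs per cell there were 8207 in IFE.SB-like and 2223.5 in T cell-like cells, so these CPM do not compare free RNA evenly.

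The 4 h library was the one in which most factors were low, and this was seen far outside the bulge. In OB1-like cells Lhx2 was at 425 CPM at 0 h (95% Poisson interval 396 to 456) and at 168 CPM at 4 h (147 to 191). OB2-like cells had 382 and 50.2 CPM and OB3-like cells 327 and 60.1 CPM. Nfib in IFE cluster 0 was at 307 CPM at 0 h, 73.9 CPM at 4 h and 275, 294, 253 and 249.998 CPM in the later libraries. At 16 h Lhx2 was at 329.9, 325 and 213 CPM in OB1-like, OB2-like and OB3-like cells, so all 4 of these series were higher at 16 h than at 4 h.

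Over the 9 epithelial types, 3 factors were at least 2-fold lower at 4 h than at 0 h in all 9. The ratios of 4 h to 0 h, with 0.5 added to each count, ran from 0.228 to 0.455 for Nfib, from 0.260 to 0.499 for Nfix and from 0.162 to 0.497 for Tcf7l2. Nfib and Nfix had their lowest library at 4 h in 9 of 9 types, and Tcf7l2 in 8 of 9. Lhx2 was at least 2-fold lower in 7 of the 8 types in which it was tested (0.0461 to 0.98). Outside the outer bulge its ratios rest on few UMIs. HF cluster 0 held 16 UMIs of Lhx2 at 0 h and 4 at 4 h, and uHF.SB-like cells 25 and 3. IFE cluster 0 held 21 and 6, and IFE.SB-like cells 14 and 0. Nfatc1 was an exception to the low levels at 4 h. It was lower at 4 h in only 2 of 9 types, with ratios of 0.691 to 1.78, and was at least 2-fold lower in 0. Runx1 was at least 2-fold lower in 1 of 9 types and Sox9 in 3 of 9, and no factor was at least 2-fold higher at 4 h in any type.

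Lower levels at 4 h were also common among all genes, and the counts are read against that share. At least 2-fold lower were 4 of 10 factors in OB1-like cells (16.8% of all genes), 4 of 9 in OB2-like (16.6%), 6 of 10 in OB3-like (19.5%), 5 of 10 in HF cluster 0 (22.2%), 5 of 10 in uHF.SB-like (16.8%), 5 of 8 in HF cluster 4 (17.1%), 5 of 7 in HF cluster 5 (20.1%), 4 of 9 in IFE.SB-like cells (18.8%) and 7 of 10 in IFE cluster 0 (28.2%). The median log2 CPM ratio to 0 h over all genes, types and libraries lay between -0.18 and 0.32, and scaling by TMM narrowed it to between -0.15 and 0.03 without changing any of these counts. Some of the counted ratios rest on few UMIs. In IFE cluster 0, Lhx2, Tcf7l1, Foxc1 and Tbx1 had 1 to 6 UMIs at 4 h, beside 10 to 23 at 0 h. The others counted there were Nfib, Nfix and Tcf7l2. Tcf7l1 had 1 UMI in HF cluster 0 and 2 in OB3-like cells at 4 h, beside 9 in each at 0 h. Whether the library, the mice or the time set the low levels cannot be told apart.

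**Figure D4:**
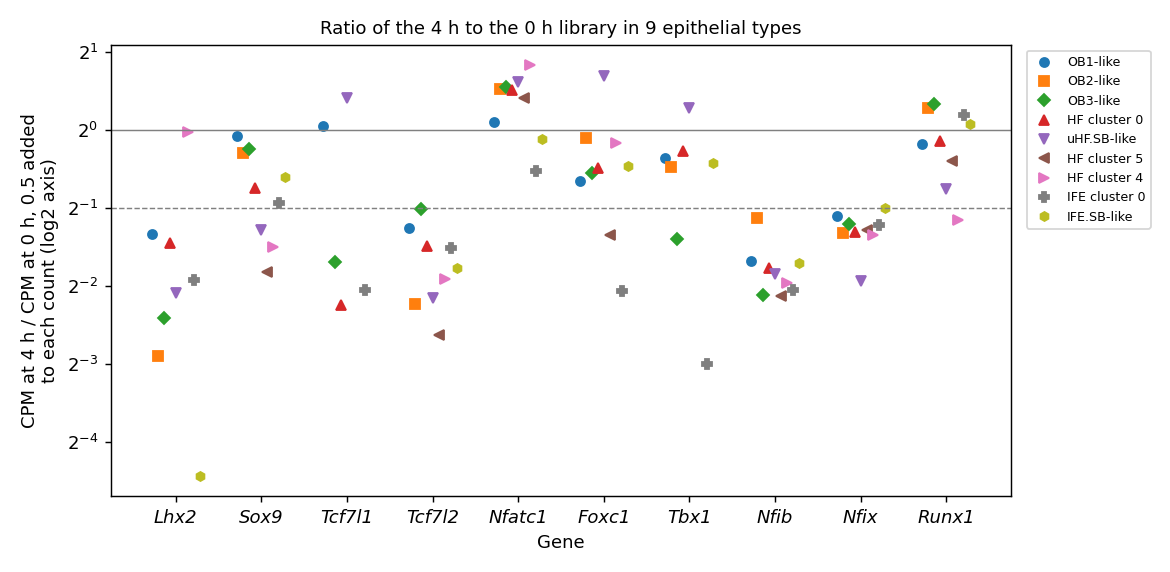
Ratio of the CPM at 4 h to that at 0 h for each factor (log axis, 0.5 added to each count), with 1 point per epithelial cell type, a solid line at 1 and a dashed line at 0.5. All points of Nfib, Nfix and Tcf7l2 lie below 0.5, while those of Nfatc1 lie between 0.691 and 1.78.

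OB1-like cells joined a Krt24 cluster and a Col14a1 cluster, which were told apart after their values had been seen, so their differences are described without a test. The Krt24 cluster held 281, 213, 298, 168, 808 and 939 cells from 0 h to 6 d and the Col14a1 cluster 37, 41, 75, 153, 1690 and 297. Nfatc1 stood at 107, 127, 87.4, 155, 80.5 and 120.2 CPM in the Krt24 cluster and at 8.17, 6.56, 20.6, 23.2, 9.52 and 11.9 CPM in the Col14a1 cluster. Foxc1 stood at 91.9, 67.1, 58.5, 66.8, 53.1 and 80.0 CPM in the former and at 28.6, 3.28, 14.2, 8.33, 11.05 and 18.9 CPM in the latter. For both genes every library of the Krt24 cluster was above every library of the Col14a1 cluster.

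Sox9 was the third factor without overlap, at 461 to 907 CPM against 189 to 409 CPM. These 3 of 10 stand beside 3.03% of 10814 genes whose ranges in the Krt24 cluster lay wholly above. Nfib and Nfix were higher in the Krt24 cluster in 6 of 6 libraries with overlapping ranges, and Tbx1 in 5 of 6. Lhx2 was higher in 4 of 6, at 444, 169.7, 338, 426, 439 and 438 CPM against 298, 161, 309, 589, 509 and 415 CPM. The clusters therefore shared Lhx2 at similar levels and differed in Nfatc1 and Foxc1. Within the Krt24 cluster alone the low values of Nfatc1, Foxc1 and Runx1 at 4 d were 80.5, 53.1 and 143 CPM, against 107, 91.9 and 172 CPM at 0 h. The fit over time in that cluster called 0 of 10 factors by edgeR, with an adjusted p of 0.99989 for each.

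A further cluster, led by Cpa4, Anxa3 and Ptgs2, was higher for 3 of the 11 OB1 markers and had none of them among its 10 leading genes. It was not named because the mean log2 fold change of these 11 markers, its best list, was -0.015. Its cells came from the 4 h (240), 16 h (147) and 6 d (61) libraries, with at most 2 from any other. Lhx2 was at 24.2, 63.1 and 172 CPM and Tbx1 at 17.6, 40.8 and 103 CPM in these libraries, below the Krt24 cluster in 3 of 3. Nfib (149.6, 279.6 and 1040.0 CPM) and Nfix (85.8, 137 and 541 CPM) were also below it in 3 of 3. Sox9 (1003, 569 and 981 CPM) and Runx1 (228, 164 and 379 CPM) were above it in 3 of 3. These 4 of 10 below and 2 of 10 above stand beside 28% and 12.6% of 10814 genes. Of the 10 factors, only Tbx1 had ranges that did not overlap those of the Krt24 cluster in the same libraries, as for 8.67% of genes lying wholly below, and no test was made.

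The IRS1 and IRS2 cluster was named from the marker lists of these inner root sheath groups, with Krt25, Krt35, Krt71 and Shh among its leading genes. Whether it also holds cells other than inner root sheath was not tested. It was described at 4 d (385 cells) and 6 d (118 cells). Beside the Col14a1 cluster of the same libraries, 9 of the 10 factors were lower there in both, as were 44.5% of 10814 genes. Tcf7l1 was at 1.67 and 1.02 CPM against 29.2 and 42.4 CPM, Tbx1 at 22.3 and 10.2 against 222 and 293 CPM, and Sox9 at 57.2 and 28.6 against 214 and 347 CPM. Lhx2 was lower as well, at 146 and 61.3 CPM against 509 and 415 CPM. Foxc1 was the exception, at 15.1 and 21.4 CPM against 11.05 and 18.9 CPM. IRS3-like cells of the same 2 libraries kept Sox9 at 837 and 851 CPM and Foxc1 at 155 and 193 CPM. These differences have no test.

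**Figure D5:**
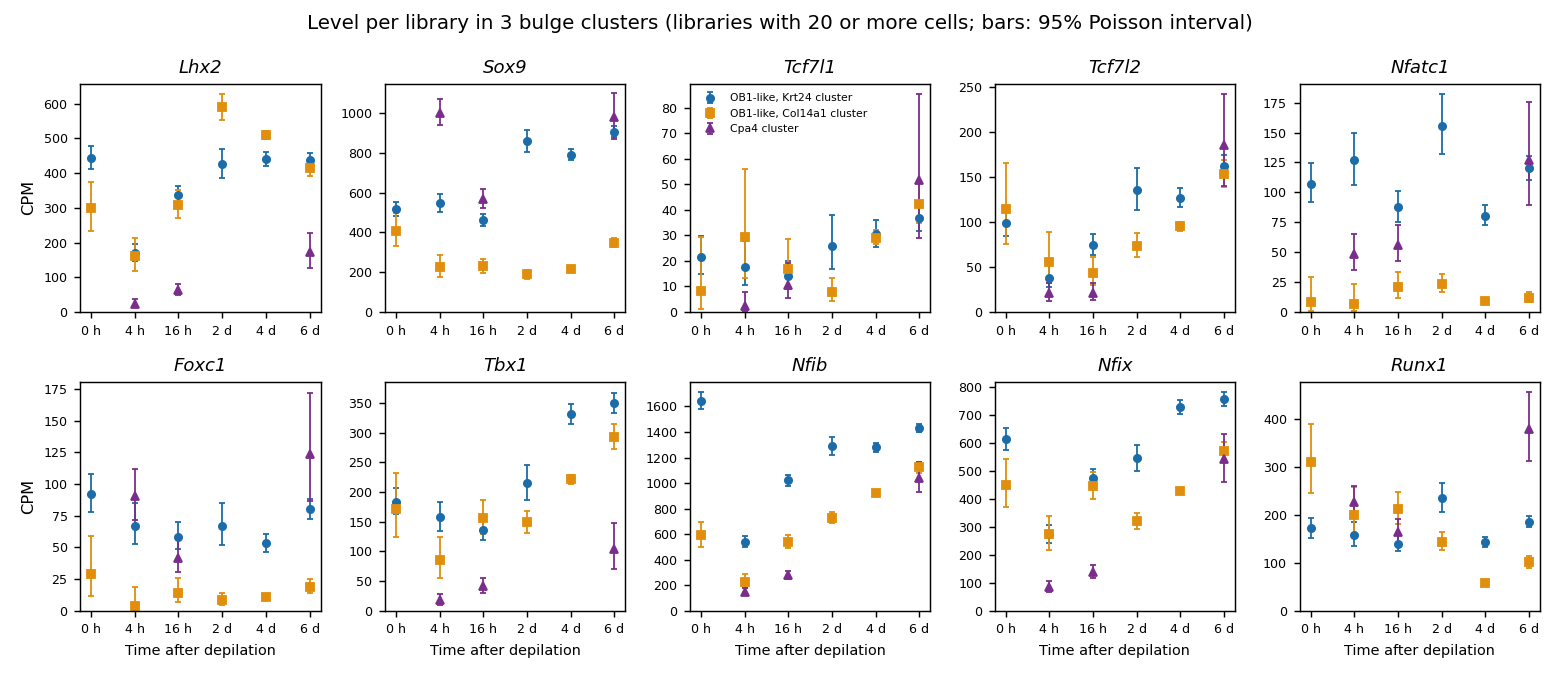
Level of each factor (CPM, axes from 0) by library in the Krt24 cluster and the Col14a1 cluster of OB1-like cells and in the Cpa4 cluster, for libraries with 20 or more cells, with 95% Poisson intervals that cover counting error only. Nfatc1 and Foxc1 are higher in the Krt24 than in the Col14a1 cluster in 6 of 6 libraries, while Lhx2 overlaps between them and is lowest in the Cpa4 cluster at 4 h (24.2 CPM).

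Cycling OB1-like cells, those with at least 2 UMIs of 10 cycling markers at 2000 UMIs, numbered 26, 8, 48, 135, 1481 and 340 per library in order of time. The 4 h library had fewer than 10 such cells and was left out. Between cycling and non-cycling cells of the other 5 libraries, 6 of 10 factors were lower in cycling cells and 0 higher, beside 14.7% lower and 13.8% higher among the 9748 genes tested. Nfatc1 was lower by the most (-1.36, SE 0.17, adjusted p = 3.45e-05, edgeR). It stood at 113.5, 30.6, 45.3, 15.4 and 38.3 CPM in the cycling cells of these libraries and at 92.1, 77.4, 107, 48.1 and 108.7 CPM in non-cycling cells, so it was lower in 4 of 5 libraries. Foxc1 (-1.06, SE 0.16, adjusted p = 0.000202) was lower in 4 of 5 and Sox9 (-0.97, SE 0.14, adjusted p = 0.000134) in 5 of 5.

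Nfib (-0.39, SE 0.10, adjusted p = 0.00719, edgeR), Runx1 (-0.42, SE 0.14, adjusted p = 0.038) and Tcf7l2 (-0.33, SE 0.11, adjusted p = 0.031) were lower by less. Only Nfatc1, Foxc1 and Sox9 remained below the threshold without the 2 d library or without the 6 d library. Lhx2 was 0.01 (SE 0.11), with 582.7 and 459 CPM in cycling and non-cycling cells at 2 d, and Tcf7l1 was 0.0035 (SE 0.20). The comparison also compared the clusters, since cycling cells made up 2.78% to 75.1% of the Col14a1 cluster and 2.44% to 29.5% of the Krt24 cluster per library. Within the Krt24 cluster Nfatc1 and Foxc1 were lower in cycling cells in only 2 of 5 libraries each, with median log2 differences of 0.17 and 0.21, while Sox9 was lower in 4 of 5 and Runx1 in 5 of 5. Within the Col14a1 cluster, where 4 libraries had enough cells, Nfatc1, Sox9 and Nfib were lower in cycling cells in 4 of 4, Foxc1 in 3 of 4 and Lhx2 in 0 of 4. No test was made within the clusters.

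The factors work with partners and relatives, and 36 of these were listed by family and likewise kept out of the clustering. These related genes were compared in all OB1-like cells, with both clusters together, and not in the Krt24 cluster alone. Against HF cluster 0, 10 of the 30 tested were higher in OB1-like cells and 3 lower, beside 12.1% and 8.86% of all genes, and against IFE cluster 0, 10 of 31 were higher and 7 lower, beside 15.7% and 18.1%. Lef1, the Wnt pathway activator of the TCF/LEF family, was higher by 5.67 (SE 0.68) and 5.88 (SE 0.63). Over the 10 genes of the TCF/LEF list the median log2 fold change was 0.41 against HF cluster 0 and 0.62 against IFE cluster 0, beside -0.0011 and -0.03 over all genes, with 4 and 5 genes higher and 0 lower. Of the LIM cofactors that bind Lhx2-type proteins or compete for their partners, Lmo4 was higher by 1.63 (SE 0.16) and Ldb1 by 0.57 (SE 0.13) than in HF cluster 0.

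The other families were mixed. Runx2 was -4.33 (SE 0.31) against HF cluster 0, where Runx1 did not pass. In the SOX list, Sox13 was 6.55 higher (SE 0.39) and Sox6 -7.35 (SE 0.30) against IFE cluster 0, with Sox6 at 0 to 1.49 CPM in OB1-like cells and 5.22 to 101 CPM in IFE cluster 0. Nfia, a relative of Nfib and Nfix, was -1.09 (SE 0.13) there. Ppp3ca, a catalytic subunit of the phosphatase calcineurin that activates NFAT proteins, was -1.21 (SE 0.16) against IFE cluster 0, -0.91 (SE 0.19) against OB2-like and -0.84 (SE 0.13) against OB3-like cells. Klf5, a factor of basal keratinocytes, was lower in all 4 comparisons, from -1.28 against OB2-like to -3.87 against IFE cluster 0.

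Against OB2-like cells, 2 of 27 related genes were higher and 5 lower (9.5% and 10.7% of all genes), and against OB3-like cells 6 of 27 were higher and 5 lower (5.24% and 6.07%). Of the TLE corepressors, which TCF and RUNX proteins recruit, Tle4 was lower against OB2-like (-0.95, SE 0.18) and OB3-like cells (-0.51, SE 0.15). Tle1 was lower against OB3-like cells (-1.18, SE 0.23). Against IFE cluster 0, however, Tle2 (2.34, SE 0.47) and Tle1 (2.08, SE 0.30) were higher. Foxp1 was -1.50 (SE 0.26) against OB2-like and 1.10 (SE 0.15) against OB3-like cells. Sox21 was 2.55 higher (SE 0.34) than in OB3-like cells. In cycling OB1-like cells 3 of 30 were higher, namely Sox5 (1.77, SE 0.25), Lef1 (1.54, SE 0.27) and Tcf7 (0.70, SE 0.20), and 8 were lower, among them Klf4 (-0.95, SE 0.14) and Ppp3ca (-0.59, SE 0.13), beside 13.8% and 14.7% of all genes. Over time in OB1-like cells 1 of the 30 tested related genes was called, Klf4 (adjusted p = 0.0251, edgeR), beside 2% of all genes.

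The genes most like each factor were sought over 93 sums of a cell type and library with at least 50 cells, by Pearson's r of log2(CPM + 1) among 8338 genes. The sums share libraries and differ mainly by cell type, so r is a description and has no p. Lhx2 was most like Tbx1 (r = 0.936), Pi15 (0.872) and Thsd1 (0.871), and Tbx1 was most like Lhx2, Fzd2 (0.904) and Pi15 (0.893). Nfib was most like Nfix (0.924), Fxyd3 (0.900) and Irx2 (0.894), and Nfix was most like Fxyd3 (0.937), Nfib and Trp63 (0.909). Sox9 was most like Barx2 (0.882), Foxc1 (0.856) and Itgb8 (0.854), and Foxc1 was most like Fzd7 (0.868), Sox9 and Itgb8 (0.843).

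Tcf7l1 was most like Lhx2 (0.831), Gpc6 (0.829) and Tbx1 (0.826), and Tcf7l2 was most like Mir99ahg (0.861), Gas1 (0.845) and Lgr4 (0.838), a receptor that amplifies Wnt signals. Nfatc1 and Runx1 were the least matched. Nfatc1 was most like Atxn1 (0.740), Esyt3 (0.735) and Pthlh (0.725), which is itself an OB3 marker, and Runx1 was most like Tle1 (0.737), Fst (0.726) and Trio (0.701). Among the 45 pairs of the 10 factors, r ran from 0.261 for Nfatc1 with Nfix to 0.936 for Lhx2 with Tbx1.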

How the data were processed

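Mouse dorsal skin cells of 6 libraries, 1 per time point, were profiled by 10x Chromium 3' single-cell RNA-seq. Per the submitters' processing notes, reads were processed with Cell Ranger 6.1.2 on mm10. The deposited filtered matrices hold raw UMI counts that the authors left unnormalised. Cells with 500 to 7000 genes and at most 10% mitochondrial counts were kept. Scrublet (in scanpy 1.11.5) called from 1 to 740 doublets per library at its own threshold, so the highest scores were removed at a rate of 0.8% per 1000 barcodes. Libraries were joined with Seurat 5.3.0 (reciprocal PCA, 2000 variable genes, 30 components, resolution 0.2 for skin and 0.4 for the follicle), and 488 genes were kept out of the clustering. These were the 10 factors, 36 related factors, 10 cycling markers and 432 genes correlated with those (r over 0.2). Clusters were named from marker lists.

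Counts were summed per library and type with at least 20 cells (10 for cycling cells) and tested with edgeR 4.0.16 in R 4.3.3 (TMM scaling, filterByExpr, robust quasi-likelihood F test, Benjamini-Hochberg adjustment over all genes tested, threshold 0.05), with the library as a block between types and a spline of hours with 3 degrees of freedom over time. DESeq2 1.42.0 was an alternative. The scripts were tested on simulated data. Within a library all types come from the same 2 mice. Between types, p-values measure how far the difference within a library varied over the libraries. Over time, they measure the scatter of single libraries about the fitted curve. Neither measures the spread between mice. Intervals are exact 95% Poisson intervals and cover counting error only. Shares of cells were taken after thinning to 2000 UMIs, leaving out shallower cells.

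The factors and lists were chosen with earlier results of these data known. All 10 factors are reported in every comparison. Of the related lists, the genes named come from the called genes with the largest change, at most 3 per list and comparison, and not all of these are named. For each factor the 3 most correlated genes with a mean of at least 10 CPM are named. Alternatives with the Cpa4 cluster added, or with the Krt24 cluster alone, were chosen after seeing the data.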

Additional observations from a re-analysis of the deposited data

How the results depend on the processing

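Of 264 alternative values of counts of factors, 242 lay within 1.5 times the count reported and 22 moved. Single factors were followed only where they had passed in the fit reported. Of 434 such values, 403 kept their direction and side of the threshold, 31 kept the direction but missed the threshold, and 0 reversed. Factors that had not passed were not among these, so the tally does not show which of them would pass. Over time, leaving out a library gave 0 to 4 of 10 factors in OB1-like cells, 0 to 3 in OB3-like cells, 0 to 1 in HF cluster 0, 0 to 2 in uHF.SB-like and 0 to 3 in IFE.SB-like cells. Without 0 h, Lhx2, Tbx1 and Nfib were called in OB3-like cells (with 500 of 6605 genes) and Nfib and Nfatc1 in uHF.SB-like cells (415 of 10211), and without 4 h, Tbx1 was called in HF cluster 0 (281 of 11314) and Lhx2, Foxc1 and Tbx1 in IFE.SB-like cells (781 of 12527). In IFE.SB-like cells Lhx2 and Tbx1 reached at most 6.98 and 5.68 CPM, beside 10.8 and 6.98 CPM in T cell-like cells. Foxc1 reached 6.58 CPM there, beside 3.94 CPM in T cell-like cells. T cell-like cells held fewer UMIs per cell, so the same number of free UMIs gives a higher CPM in them. With log2(hours + 1), 3 factors were called in OB3-like (645 genes in all) and 2 in uHF.SB-like cells (844), with the rank of time 1 in OB3-like cells (131), and with DESeq2's likelihood ratio test 1 in IFE.SB-like cells (139). The number of all genes called over time in OB1-like cells was 216 and ran from 20 (without 4 d) to 2070 (without 0 h), with 883 without 4 h, 65 without 6 d, 791 on the log2 scale, 683 on ranks, 505 for late against early libraries, 680 by DESeq2, 612 without a filter, 2 at resolution 0.8, 32 with another seed or with the Cpa4 cluster added and 104 in the Krt24 cluster alone. The cause of these shifts was not tested.

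With the Krt24 cluster alone, 5 factors were higher than in OB2-like and 2 than in OB3-like cells. At resolution 0.8, 1 factor was lower in OB1-like cells than in HF cluster 0 (0 in the fit reported). Against OB2-like cells, 1 factor was higher without the library block, 1 with a mitochondrial limit of 5%, and 1 to 2 with a library left out. Against OB3-like cells, 2 factors were higher without a filter on low counts and 0 without the block, and 1 was lower without the block. Cycling cells had 2 factors lower with a threshold of at least 1 cycling UMI, and 3 to 8 with a library left out. All 20 shares of OB1-like cells with a UMI at 0 h moved with the depth of thinning. At resolution 0.2 no OB1-like cluster formed, so no value was had. Depth limits Tcf7l1 most, with 28 UMIs in OB1-like cells at 4 h.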
